A study of Homo sapiens with 4 samples.

Results

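Hyaluronan is a long sugar polymer that cells extrude from the plasma membrane and that holds water and proteoglycans around them. Hyaluronan synthases make it, lecticans (versican, aggrecan, brevican and neurocan, proteoglycans that carry chondroitin sulfate) bind it through their N-terminal domain, and link proteins of the HAPLN family clamp the lectican to the polymer. CD44 is the main cell surface receptor for hyaluronan. In cartilage these parts form aggrecan aggregates, and around neurons they form perineuronal nets. Of the 62696 gene rows in each deposited table, 10 genes of this system were read by their symbol: HAPLN1, HAPLN3 and HAPLN4, VCAN, ACAN, BCAN and NCAN, HAS2 and HAS3, and CD44. They were chosen by a result of these data, the level of HAPLN1, which was over 10-fold higher in each library labelled knockdown. The comparison with the control is therefore given as a description.

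The libraries came from NT2 cells (NTERA-2), an established human line from an embryonal carcinoma, whose cells can be made to turn into neurons. The control, 1 library, came from cells with an empty vector, labelled wild type, and the other group held 3 libraries labelled HYDIN2 knockdown, replicates 1 to 3. HYDIN2 is a partial copy of the motile cilia gene HYDIN. The labels do not say how the knockdown was made, or whether the replicates were separate cultures or 1 clone, so the spread between them may be technical. All cells grew in medium with serum, and all libraries were made from 100 ng of total RNA after removal of ribosomal RNA.

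Depth was 25181737 counts in the control and 62904698, 61627449 and 28552070 counts in labelled libraries 1, 2 and 3. Library 3 was thus nearer to the control in depth than libraries 1 and 2 were. Levels are given as counts-per-million (CPM). HYDIN2 itself stood at 0.50 CPM in the control and at 2.41, 1.88 and 0.352 CPM in the libraries labelled knockdown 1, 2 and 3. The targeted gene was thus higher, not lower, in libraries 1 and 2, with ratios of 4.82 (counting interval 2.11 to 13.5) and 3.75 (1.62 to 10.7). In library 3 the ratio of 0.704 had a counting interval of 0.180 to 2.7. Directions below are therefore those of libraries labelled knockdown. The columns of the deposited tables are named after a LacZ control and GKAP_KIF27 sets. Labelled knockdown libraries 1 and 2 were at least 2-fold apart in 0.302% of 15880 tested genes, whereas library 3 lay at least 2-fold above both of them in 7.87% and below both in 12.3% of 16105 genes. Each result is therefore given per library. Of 10 embryonal carcinoma markers, 9 were expressed, with a summed level of 6245 CPM in the control and 6718, 6941 and 3810 CPM in labelled libraries 1, 2 and 3. ZFP42 was near 0 in each of the 4.

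The call rule asked for a log2 CPM difference of 1 or more (2-fold) between the control and every one of the 3 labelled libraries, all with 1 sign. Genes were tested if the mean of the 2 group means was at least 1 CPM. That level was met by 9 of the 10 genes, all but HAPLN4. By this rule 1 of them, HAPLN1, was higher and 0 were lower. Over all 15880 tested genes 3.65% were higher and 2.72% lower (6.37% either way). The place of HAPLN1 was fixed by the choice of genes, so the rest is given without it. Of the other 8 tested genes, 0 passed in either direction. Ignoring size, 3 of these 8 (VCAN, ACAN and CD44) lay above the control in all 3 labelled libraries, against 30.1% of all tested genes, and 3 (HAPLN3, HAS2 and HAS3) lay below it in all 3, against 34.2%. These signs are without removal of trends on transcript length and GC content. With those removed, VCAN in libraries 1 and 2 and CD44 and NCAN in library 3 lay below the control. BCAN and HAS2 then lay above it in library 3, at log2 differences of 0.09 and 0.007. Without trend removal the median of the mean log2 difference was 0.20 over the 8 genes and -0.02 over all tested genes. With a single empty vector library there is no replicate check on the control side and no p-value is given for a gene. edgeR's quasi-likelihood test called 0 of 26029 genes after Benjamini-Hochberg adjustment, none of the 9 among them, with 3023 genes at an unadjusted p under 0.05, and the Wald test of DESeq2 called 253 genes. The spread in these tests comes from the labelled knockdown libraries alone. Without library 1, 2 or 3 edgeR called 0.0737%, 0.169% and 44.7% of genes.

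**Figure D1:**
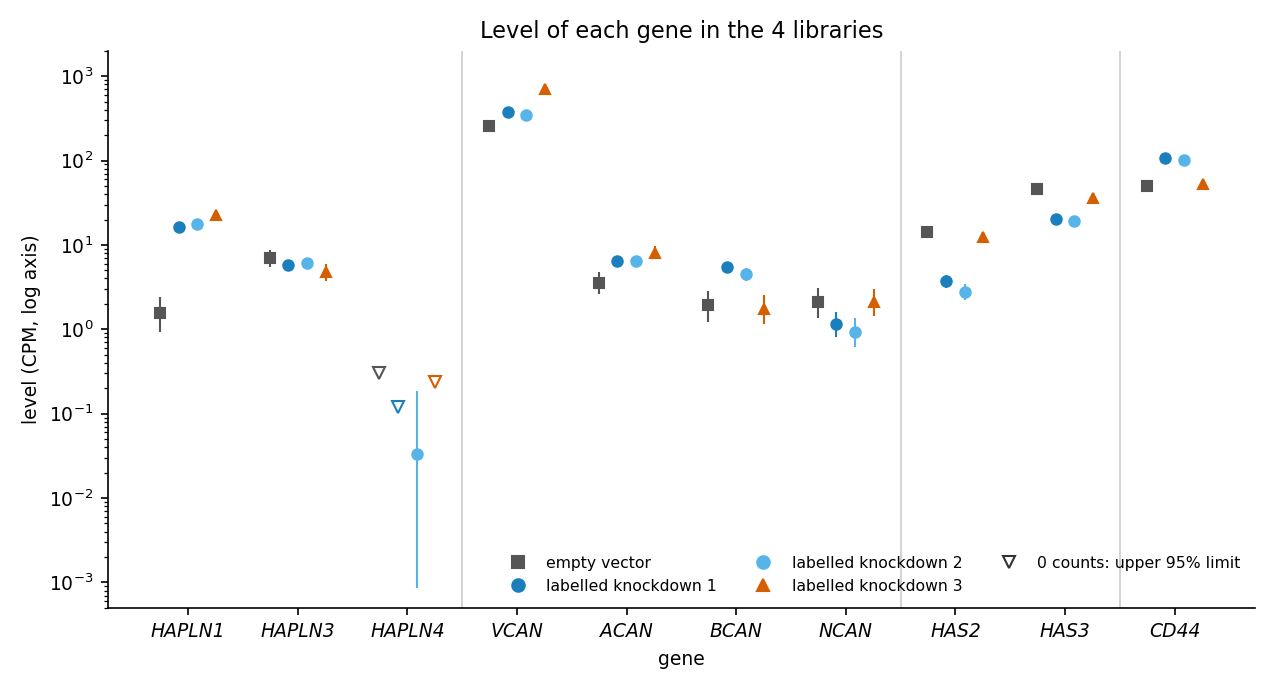
Level of each gene in CPM (log axis) in the control and in labelled knockdown libraries 1, 2 and 3, with 95% Poisson intervals for counting error; open triangles mark the upper limit where no count was found. HAPLN1 lies at 1.54 CPM in the control and between 16.5 and 22.6 CPM in the others, and the symbols of HAS2, HAS3, BCAN, NCAN and CD44 separate labelled libraries 1 and 2 from the other two.

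HAPLN1 (ENSG00000145681.11; GRCh38 chromosome 5, 83637805 to 83721613, minus strand) encodes the link protein best known from cartilage. It had 37 counts in the control and 1026, 1049 and 705 counts in labelled knockdown libraries 1, 2 and 3. Scaled to depth these were 1.54 CPM (95% counting interval 0.921 to 2.42) against 16.5, 17.6 and 22.6 CPM, a mean of 18.9 ± 3.25 (SD, n = 3). The ratio to the control was 10.7 in library 1 (6.74 to 18.0), 11.4 in library 2 (7.19 to 19.2) and 14.6 in library 3 (9.18 to 24.8). These ratios chose the gene set and are no test of it. The next gene by its smallest ratio above 1 was ACAN, with 1.78, 1.80 and 2.25. Only 7 of the 15880 tested genes (0.0441%) reached 10-fold in each labelled library, and 9 genes, HAPLN1 included, had a mean log2 difference at or above its 3.56. The level in library 3 was 1.37 times that in library 1 (1.19 to 1.57) and 1.28 times that in library 2 (1.12 to 1.47), so HAPLN1 was alike in the 3 libraries next to its distance from the empty vector. The longest HAPLN1 transcript shares no stretch of 50 bases with a transcript of another gene in GENCODE 29.

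HAPLN3 (ENSG00000140511.12; chromosome 15, 88877288 to 88895626, minus strand), a broadly expressed link protein, did not follow. It had 6.96 CPM in the control and 5.72, 6.05 and 4.80 CPM in labelled libraries 1, 2 and 3, with ratios of 0.822 (0.630 to 1.08), 0.869 (0.667 to 1.14) and 0.690 (0.498 to 0.954). Only the interval of library 3 lay below 1. HAPLN4 (ENSG00000187664.9), a brain link protein, had 0, 0, 2 and 0 counts in the control and labelled libraries 1, 2 and 3. Where 0 counts were found, a floor of 3 counts allows up to 0.125 CPM in the control and 0.0482 and 0.0960 CPM in labelled libraries 1 and 3. All of its longest transcript is also part of 2 overlapping genes, AC138430.1 and AC138430.2, so its reads may not be assignable. HAPLN2, the link protein of myelinated axons, is not among the 10 and had 13, 33, 23 and 0 counts.

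Levels of different genes are comparable only per length, and the scale used is CPM per kb of the longest annotated transcript. On that scale HAPLN1 was the lowest of the 9 genes in the control at 0.275, close to NCAN at 0.326. In each labelled knockdown library, at 2.94, 3.13 and 4.03, it came next after VCAN, CD44 and HAS3. Among the 4 link protein genes HAPLN1 made up 9.66% of the summed level in the control and 57.6%, 58.8% and 72% in labelled libraries 1, 2 and 3. HAPLN3 went from 79.6% to 36.5%, 36.9% and 28.0% of the sum, while its own level per kb stayed between 1.56 and 2.27. The summed link protein level was 2.85 in the control and 5.10, 5.33 and 5.59 in the others. Lengths from the union of exons, chosen after seeing the data, gave HAPLN1 9.09% and 56%, 57.1% and 70.4%.

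**Figure D2:**
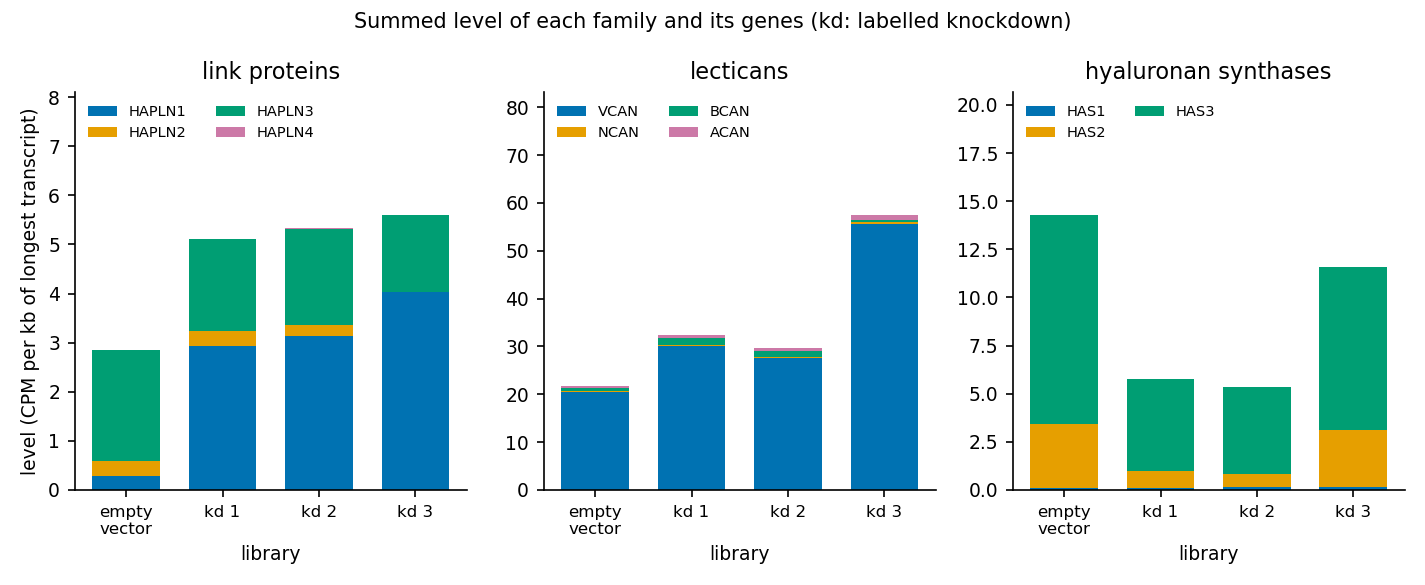
Summed level of the link protein, lectican and hyaluronan synthase genes in CPM per kb of the longest transcript (bars, from 0), split by gene, in the control and labelled knockdown (kd) libraries 1, 2 and 3. HAPLN1 goes from 9.66% of the link protein bar to between 57.6% and 72%, VCAN fills over 92% of each lectican bar, and the synthase bars of kd 1 and kd 2 are the lowest at 5.78 and 5.33.

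The lecticans are the partners that link proteins hold on hyaluronan. VCAN (ENSG00000038427.16; chromosome 5, 83471465 to 83582303, plus strand) encodes versican, the lectican of embryonic and loose connective matrix. It was the most abundant of the 10 genes in every library, at 258 CPM in the control and 379, 348 and 702 CPM in labelled libraries 1, 2 and 3. The ratios were 1.47 (1.41 to 1.53), 1.35 (1.30 to 1.41) and 2.72 (2.61 to 2.83), so only library 3 passed 2-fold. VCAN alone made up 94.1% of the summed lectican level per kb in the control and 92.4%, 92.7% and 97.0% in the others. Its longest transcript of 12625 nt is longer than those of 98.1% of tested genes, and the libraries differ in a trend with transcript length. With trends on length and GC content removed, its log2 differences of 0.55, 0.43 and 1.44 became -0.16, -0.23 and 0.56, and its mean went from 0.81 to 0.05. HAPLN1 went from 3.56 to 3.35 in the same step.

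ACAN (ENSG00000157766.19; chromosome 15, 88803442 to 88875354, plus strand) encodes aggrecan, the large lectican of cartilage. It had 86 counts in the control and 396, 384 and 252 counts in labelled libraries 1, 2 and 3, or 3.58 CPM against 6.36, 6.43 and 8.07 CPM. The interval of each ratio lay above 1, with lower ends of 1.27, 1.28 and 1.58. The mean log2 difference was 0.94 ± 0.19 (SD, n = 3) and only library 3, at 1.16, passed 2-fold. Trend removal lowered the mean to 0.46, with 0.36, 0.44 and 0.58 in the 3 libraries. Among the lecticans ACAN was thus the one whose 3 labelled libraries lay closest together above the control, with VCAN at an SD of 0.55. ACAN moved by a much smaller amount than HAPLN1, which was chosen for its rise.

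BCAN and NCAN, the lecticans of the nervous system, split the labelled libraries. BCAN (ENSG00000132692.19; chromosome 1, 156641390 to 156659532, plus strand) encodes brevican and had 1.92 CPM in the control. Labelled libraries 1 and 2 had 5.43 and 4.49 CPM, ratios of 2.83 (1.83 to 4.59) and 2.34 (1.5 to 3.82). Library 3 had 1.76 CPM, a ratio of 0.919 (0.509 to 1.67). Noncoding genes on the other strand cover part of BCAN, and 17.2% of the 50-base stretches of its longest transcript recur in them. One of these, ENSG00000272405, had log2 differences of 2.27, 2.11 and 0.12, the same split, so the share of each in the counts is uncertain. NCAN (ENSG00000130287.14; chromosome 19, 19211973 to 19252233, plus strand) encodes neurocan and went the other way, from 2.08 CPM in the control to 1.16 and 0.938 CPM in libraries 1 and 2. Library 3 had 2.11 CPM. At 50, 72, 56 and 66 counts, the NCAN ratios of 0.555 (0.324 to 0.965) and 0.450 (0.253 to 0.805) are known only roughly.

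Each link protein gene neighbours a lectican gene, an arrangement the choice of genes did not use. HAPLN1 and VCAN face each other 55.5 kb apart, HAPLN3 and ACAN 1.93 kb apart, HAPLN4 and NCAN 3.41 kb apart, and HAPLN2 lies 15.7 kb before BCAN on the same strand. HAPLN2 and HAPLN4 were too low to be tested, so only the HAPLN1 and HAPLN3 pairs could be compared, and in neither did both genes pass the 2-fold rule. HAPLN1 was higher by 3.38, 3.47 and 3.83 on the log2 scale while VCAN differed by 0.55, 0.43 and 1.44. In the HAPLN3 pair the signs were opposite in all 3 labelled libraries, with HAPLN3 at -0.28, -0.20 and -0.53 and ACAN at 0.82, 0.84 and 1.16. On the other side of HAPLN1 the nearest protein-coding gene was EDIL3, an integrin-binding matrix protein, 219 kb away. EDIL3 had 18.6 CPM in the control and 80.6, 78.8 and 24.4 CPM in labelled libraries 1, 2 and 3. Of 4 tested genes within 500 kb of HAPLN1, none passed the rule. Promoters of this gene pair and of the HAPLN3 and ACAN pair are printed here because HAPLN1 differed from its own neighbour and from its nearest paralog in level. They are RefSeq sequences on GRCh38.p14, from 250 bases before to 50 bases after the start, found for 8 of the 10 genes (all but HAS2 and NCAN). They are HAPLN1 at chr5:83720806-83721105 on the minus strand, VCAN at chr5:83471494-83471793 on the plus strand, HAPLN3 at chr15:88895495-88895794 on the minus strand and ACAN at chr15:88803186-88803485 on the plus strand. Capitals mark matches, on either strand, to the GC box GGGCGG or to the SOX core ACAAAG, where matches may overlap.
HAPLN1: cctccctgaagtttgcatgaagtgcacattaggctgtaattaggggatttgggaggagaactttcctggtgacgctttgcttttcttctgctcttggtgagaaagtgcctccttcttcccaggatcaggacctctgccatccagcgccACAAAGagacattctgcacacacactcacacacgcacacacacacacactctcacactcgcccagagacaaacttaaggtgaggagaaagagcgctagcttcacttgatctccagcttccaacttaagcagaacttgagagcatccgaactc
VCAN: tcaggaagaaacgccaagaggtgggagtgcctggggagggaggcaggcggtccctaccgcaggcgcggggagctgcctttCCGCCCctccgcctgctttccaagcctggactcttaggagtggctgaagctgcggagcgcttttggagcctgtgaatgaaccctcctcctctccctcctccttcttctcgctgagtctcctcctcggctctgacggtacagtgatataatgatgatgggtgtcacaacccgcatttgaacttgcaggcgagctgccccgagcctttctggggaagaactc
HAPLN3: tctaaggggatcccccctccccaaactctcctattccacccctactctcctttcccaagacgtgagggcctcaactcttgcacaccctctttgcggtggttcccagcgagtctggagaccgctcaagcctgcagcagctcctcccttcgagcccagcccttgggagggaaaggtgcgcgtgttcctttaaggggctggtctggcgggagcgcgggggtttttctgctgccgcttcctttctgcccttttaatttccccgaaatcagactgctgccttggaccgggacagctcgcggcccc
ACAN: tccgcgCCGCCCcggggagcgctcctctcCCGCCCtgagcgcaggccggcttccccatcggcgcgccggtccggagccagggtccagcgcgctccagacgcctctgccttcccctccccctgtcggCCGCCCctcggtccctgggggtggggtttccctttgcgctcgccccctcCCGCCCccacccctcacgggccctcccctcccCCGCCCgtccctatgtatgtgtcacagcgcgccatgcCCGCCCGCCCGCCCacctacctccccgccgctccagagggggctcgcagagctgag

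The HAPLN1 window had a GC content of 50% and 6 CpG dinucleotides, which is at or above the CpG number of 37.5% of 27305 promoters. Those of VCAN and HAPLN3 had 15 CpG dinucleotides each, and that of ACAN had 33, with a GC content of 77.0%. HAPLN1 held no GC box and 1 SOX core, at position -102 from the start. VCAN held 1 GC box, ACAN held 8, some of them overlapping, and HAPLN3 held none, and none of these 3 held the SOX core. Among the other 4 windows, the SOX core was also in that of HAS3, at -182, and a GC box was in each, with 5 in BCAN, 2 in CD44 and 1 each in HAS3 and HAPLN4. Over all promoters in the table, 44.6% held a GC box and 16.0% the SOX core. TATAAA and TGANTCA, found in 12% and 7.76% of promoters, were in none of the 8 windows. These matches describe the letters only.

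**Figure D3:**
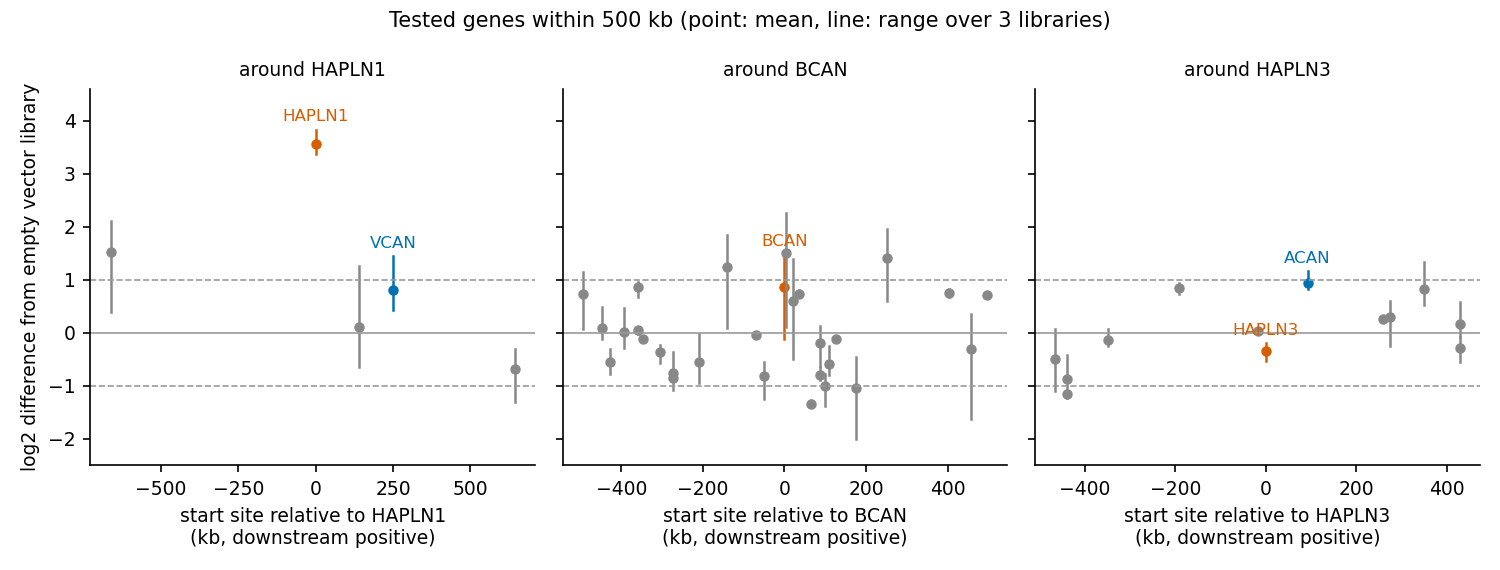
Log2 difference from the control (point, mean; line, range over 3 labelled knockdown libraries) of tested genes within 500 kb of HAPLN1, BCAN and HAPLN3, by the distance of their start site in kb, downstream positive; dashed lines mark 2-fold. HAPLN1 stands alone at 3.56, with VCAN at 0.81 in the same panel, and ACAN lies above and HAPLN3 below 0 in theirs.

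Hyaluronan synthases were examined next. HAS2 (ENSG00000170961.7; chromosome 8, minus strand) encodes the synthase needed in the embryo, and HAS3 (ENSG00000103044.11; chromosome 16, 69105564 to 69118719, plus strand) a synthase of many epithelia. HAS2 had 339 counts in the control and 231, 165 and 387 counts in labelled libraries 1, 2 and 3, or 14.1 CPM against 3.71, 2.76 and 12.4 CPM. Its ratios were 0.263 (0.206 to 0.335) and 0.196 (0.149 to 0.256) in libraries 1 and 2 and 0.877 (0.710 to 1.08) in library 3. HAS2 in library 3 was 3.34 times the level in library 1 (2.64 to 4.24) and 4.48 times that in library 2 (3.45 to 5.87). HAS3 had 45.6 CPM in the control and 20.3, 19.1 and 35.6 CPM in the others, with ratios of 0.444 (0.395 to 0.499), 0.419 (0.372 to 0.472) and 0.781 (0.693 to 0.881). Both synthases were thus low in libraries 1 and 2 and nearer to the control in library 3. HAS1 had at most 18 counts in any library. The summed synthase level per kb was 14.3 in the control, 5.78 and 5.33 in labelled libraries 1 and 2 and 11.6 in library 3, and HAS3 made up between 73.0% and 84.9% of it. HAS2-AS1, a noncoding gene on the other strand that overlaps HAS2, was lower in all 3, from 1.79 CPM to 0.755, 0.469 and 0.192 CPM, the last from 6 counts.

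CD44 (ENSG00000026508.21; chromosome 11, 35138870 to 35232402, plus strand) had 49.7 CPM in the control and 108, 101 and 52.4 CPM in labelled libraries 1, 2 and 3. The ratios were 2.18 (2.00 to 2.38), 2.04 (1.87 to 2.23) and 1.06 (0.948 to 1.17). Libraries 1 and 2 were high, and library 3 was not distinguishable from the control at this depth. With length and GC trends removed the CD44 log2 differences were 0.85, 0.79 and -0.17, so libraries 1 and 2 no longer reached 2-fold. Without trend removal the CD44 level in library 3 was 0.484 of that in library 1 and 0.517 of that in library 2.

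**Figure D4:**
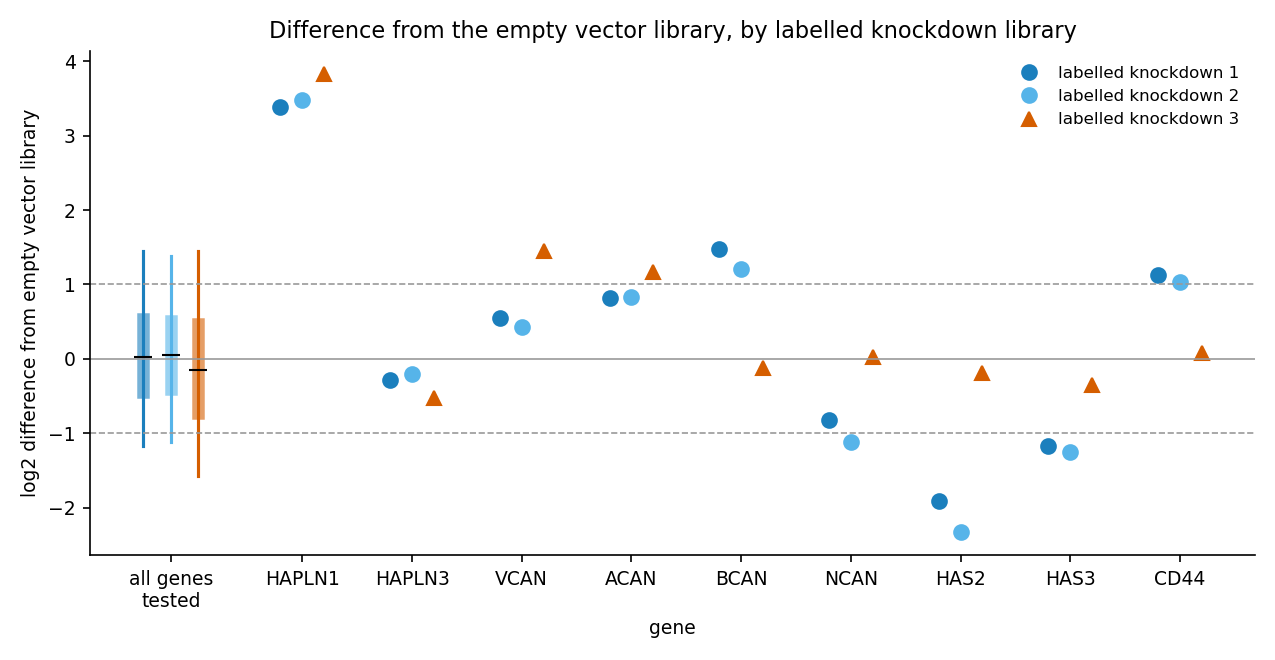
Log2 difference of each gene from the control in labelled knockdown libraries 1, 2 and 3; at the left, the median, middle 50% and middle 90% of all 15880 tested genes, and dashed lines at 2-fold. HAPLN1, ACAN and VCAN lie above 0 in each library, whereas BCAN, NCAN, HAS2, HAS3 and CD44 lie far from 0 in libraries 1 and 2 and between -0.36 and 0.08 in library 3.

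The 10 genes thus fell into 3 patterns, described after their values were seen. HAPLN1, ACAN and VCAN lay above the control in each labelled library, VCAN highest in library 3. With length and GC trends removed this held for HAPLN1 and ACAN but not for VCAN, then at -0.16, -0.23 and 0.56. BCAN and CD44 were above, and HAS2, HAS3 and NCAN below, in labelled libraries 1 and 2, with library 3 near the control. HAPLN3 changed little and HAPLN4 was hardly detected. On the rule without library 3, the tested genes were 3 higher (HAPLN1, by its choice, with BCAN and CD44) and 2 lower (HAS2 and HAS3), where 9.76% and 5.36% of all 15797 tested genes were. CD44 left that count when the scaling was refitted on the 3 remaining libraries. Library 3 lay at least 2-fold above both others in HAS2 and below both in BCAN.

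Other genes of the pathway were read from 8 lists, fixed with earlier results of these data known. Of 79 genes, 58 were tested, 11 were higher (HAPLN1 included) and 1 was lower. Without the genes described above, 10 of 49 tested genes were higher (20.4%) and 1 lower (2.04%), beside 3.65% and 2.72% of all tested genes, with a median log2 difference of 0.15. Several of the higher genes have long transcripts, and with length and GC trends removed HAPLN1, TNC and FN1 alone passed as higher. That left 2 higher of the 49 tested genes (4.08%), beside 2.96% of all genes tested in the same way. Leaving out labelled library 3 gave 16 higher and 4 lower.

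Matrix proteins that bind lecticans or lie beside them in perineuronal and pericellular matrix held 4 higher of 8 tested genes and 0 lower. Over all tested genes 3.65% were higher and 2.72% lower. The median log2 difference of the list was 1.37. TNC, tenascin-C, an oligomeric glycoprotein that binds lecticans, had 68.9 CPM in the control and 418, 381 and 293 CPM in labelled libraries 1, 2 and 3. FN1, fibronectin, had 232 CPM against 1130, 1042 and 891 CPM. PTPRZ1, a receptor phosphatase whose secreted form is a chondroitin sulfate proteoglycan, had 158 CPM against 458, 444 and 533 CPM. FBN1, fibrillin-1, which binds versican, had 16.6 CPM against 42.6, 40.8 and 55.5 CPM. With length and GC trends removed TNC and FN1 still passed. PTPRZ1, at log2 differences of 0.99, 0.99 and 1.23, and FBN1, at 0.70, 0.70 and 0.85, did not. For TNC, FN1 and PTPRZ1 the 3 labelled libraries lay close together beside their distance from the control. CNTN1, an axonal adhesion protein, had 1.25 CPM in the control, 7.45 and 7.5 CPM in libraries 1 and 2 and 0.512 CPM in library 3. FBLN1, fibulin-1, a versican and aggrecan ligand, stayed between 232 and 249 CPM in the 4 libraries.

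Proteases that cleave lecticans held 3 higher of 7 tested genes and 0 lower, beside 3.65% and 2.72% of all tested genes. ADAMTS5, the main aggrecanase of cartilage in mice, had 2.75 CPM in the control and 17.2, 14.8 and 6.02 CPM in labelled libraries 1, 2 and 3. ADAMTS9, a versican-cleaving protease, had 31.3 CPM against 76.6, 67.3 and 176 CPM, highest in library 3 as VCAN was. ADAMTS15 had 2.92 CPM against 10.6, 8.61 and 5.95 CPM, with a difference of 1.02 in library 3 that only just passed. ADAMTS1 and ADAMTS4 passed in no direction, at mean log2 differences of 0.48 and -0.41. None of the 3 higher proteases passed in each library once length and GC trends were removed, with means of 1.47 for ADAMTS5, 1.18 for ADAMTS9 and 1.34 for ADAMTS15.

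Genes that make hyaluronan or its precursors or break it down held 1 higher of 8 tested genes (HAS2 and HAS3 among the 8), 0 lower and a median log2 difference of -0.81. CEMIP, which drives hyaluronan depolymerization at the cell surface, had 3.58 CPM in the control and 21.3, 18.3 and 8.71 CPM in labelled libraries 1, 2 and 3. With length and GC trends removed CEMIP did not pass, at a log2 difference of 0.83 in library 3. UGDH and UGP2, the enzymes of UDP-glucuronic acid supply, lay below the control in each labelled library, UGDH at 94.6 CPM against 62.5, 69.4 and 69.9 CPM. HYAL2, a membrane-anchored hyaluronidase, had 59.9 CPM against 29.2, 30.1 and 46.0 CPM, nearest to the control in library 3, as HAS3 was. In all, 6 of the 8 tested genes of this list lay below the control in each labelled library at any size, beside 34.2% of all tested genes. HAS2 and HAS3 are among these 6, and the HAS2 ratio in library 3 had an interval of 0.710 to 1.08.

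Receptors and binding proteins gave 0 calls in 5 tested genes, CD44 among them. HMMR, a hyaluronan-binding protein that also acts at the mitotic spindle, had 197 CPM in the control and 230, 246 and 92.1 CPM in labelled libraries 1, 2 and 3. ITIH5 had 3.54 CPM against 6.75, 5.91 and 17.4 CPM.

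For the chondroitin sulfate chains that lecticans carry, 1 of 10 tested synthesis genes was higher and 0 lower, with a median of 0.08. XYLT1, which starts the chain on the core protein, had 32.2 CPM in the control and 83.6, 73.7 and 79.2 CPM in labelled libraries 1, 2 and 3. Its paralog XYLT2 had 33.6 CPM against 23.6, 22.1 and 16.3 CPM. CHSY1, a chain polymerase, had a mean log2 difference of 0.24. Among 11 tested sulfation and epimerization genes 1 was higher and 1 lower, with a median of 0.05. CHST3, which sulfates carbon 6, had 12.2 CPM against 35.0, 30.2 and 31.3 CPM. CHST13, a carbon 4 sulfotransferase, had 2.67 CPM against 0.707, 0.888 and 0.320 CPM, from 64, 44, 53 and 10 counts. After trend removal CHST13 still passed and XYLT1 and CHST3 did not. In the remaining list of chondroitin sulfate proteoglycans none of 3 tested genes passed. CSPG4 was at 1.67, 1.44 and 0.82 and CSPG5 at -1.59, -1.91 and -0.96 on the log2 difference scale.

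**Figure D5:**
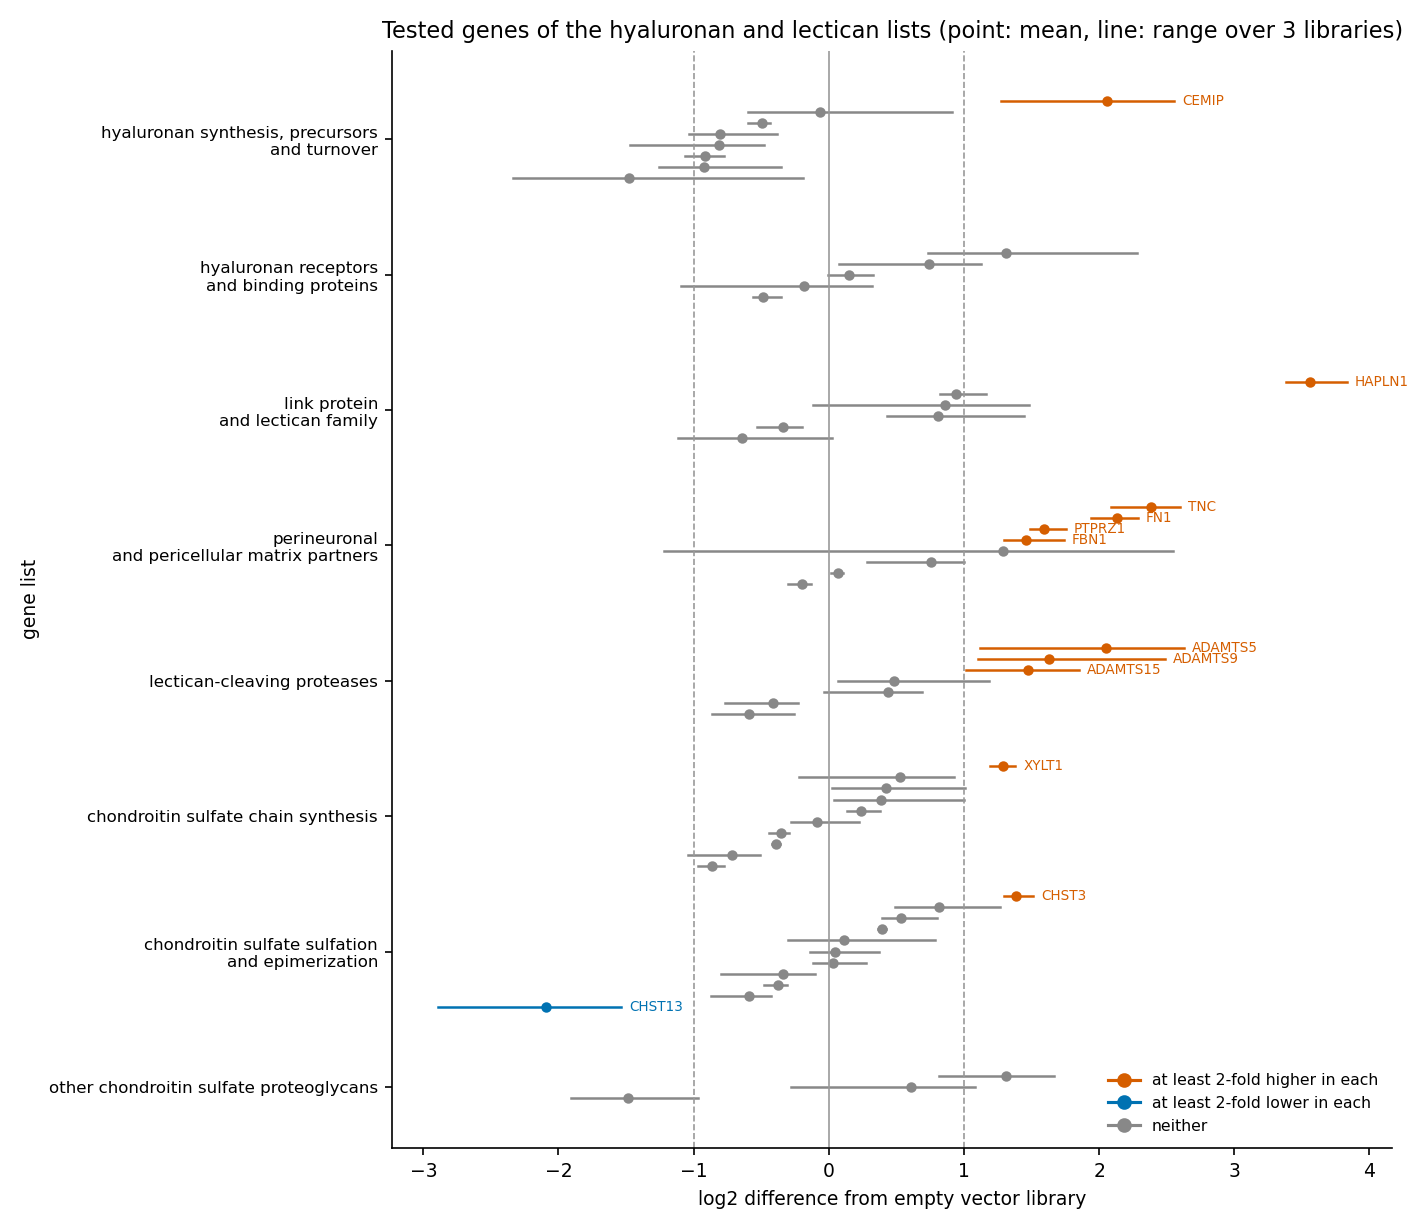
Log2 difference from the control of the tested genes of the 8 lists (point, mean; line, range over 3 labelled knockdown libraries), with genes at least 2-fold higher or lower in each library named; dashed lines mark 2-fold. HAPLN1 lies farthest right at 3.56, 4 matrix partners and 3 proteases are named as higher, and CHST13 is the 1 lower gene.

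Markers of other cell types were read beside these results. Of 8 chondrocyte markers 6 were tested. Of these, 4 were higher (SOX9, COL2A1, COL11A1 and CNMD) and 0 lower, beside 3.65% and 2.72% of all tested genes. COL9A1 and MATN3 were tested and did not pass, at log2 differences of 0.23, 0.38 and -0.46 and of 0.47, 0.44 and 0.06. The summed level of the 8 was 24.2 CPM in the control and 69.1, 62.8 and 71.7 CPM in labelled libraries 1, 2 and 3. These values are without removal of length and GC trends. SOX9, the transcription factor of cartilage and of several neural progenitors, had 4.42 CPM against 14.3, 12.3 and 15.3 CPM. COL2A1, the main cartilage collagen, had 0.750 CPM against 3.15, 2.85 and 4.77 CPM. MATN1 and COMP, also cartilage proteins, stayed at or below 0.482 CPM, COMP at 0 counts in library 3. Of 8 fibroblast and mesenchyme markers 7 were tested, of which 1 was higher (PRRX1) and 0 lower, beside the same 3.65% and 2.72%. Their sums were 126 CPM against 199, 184 and 172 CPM, and DCN was at 0 counts in 3 of the libraries. COL3A1 went the other way in libraries 1 and 2, from 4.04 CPM to 0.739 and 0.570 CPM, and had 6.21 CPM in library 3. Of 8 neural progenitor markers 5 were tested, of which 1 was higher and 0 lower. The higher gene was PAX6, at 0 counts in the control and 15.4, 13.1 and 2.95 CPM in libraries 1, 2 and 3. The sums were 223 CPM against 389, 368 and 369 CPM, and HES5 was at 0 in every library. LHX2 went from 15.2 CPM down to 4.91 and 4.64 CPM in libraries 1 and 2 and had 18.8 CPM in library 3. Of 7 glial markers 3 were tested and none passed. The sum of the 7, 61.6 CPM against 136, 142 and 24.1 CPM, was highest in libraries 1 and 2, as BCAN was. Blood cell markers summed to between 0.128 and 0.871 CPM. The part of such cells in the levels of HAPLN1, ACAN and BCAN was not tested, and in bulk RNA more cells of a type and more RNA per cell cannot be told apart.

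The 5 genes most like HAPLN1 were those whose 3 log2 differences lay closest to its own, over 4 libraries. MYOCD, a cofactor of serum response factor in smooth muscle and heart, was the nearest, with no difference farther than 0.72 from that of HAPLN1. CALCR, the calcitonin receptor, followed at 0.94, from 6 counts in the control and 160, 170 and 67 in the others. PRRX1, a homeobox factor of limb and head mesenchyme, came at 1.05, PLAGL1, an imprinted zinc finger gene, at 1.08 and COL12A1, a fibril-associated collagen, at 1.13. COL12A1 had 15.0 CPM in the control and 93.8, 89.3 and 97.4 CPM in labelled libraries 1, 2 and 3. None of the other 9 genes of the hyaluronan system was among the 5, which their differences given above had already fixed and which is no separate result.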

How the data were processed

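RNA of 4 libraries was measured by strand-specific sequencing of ribosome-depleted total RNA, per the labels' protocols. The authors deposited raw counts per gene, 1 table per library. STAR 2.7.11b, featureCounts 2.0.6, DESeq2 and the builds hg38 and GRCh38 are named in the submitters' processing notes, without their roles; the strand setting and annotation release are not given in the sources used here. Tables were assigned to samples by the series' record and to groups by the sample titles. Between 65.2% and 68.0% of nonzero counts were even, a pattern that counting each read of a pair would give, so 95% intervals (exact Poisson for levels, Clopper-Pearson for ratios) used counts divided by 2. Intervals and the floor of 3 counts (6 counts if both reads were counted) cover counting error only.

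Counts were scaled with TMM factors of edgeR 4.0.16 (R 4.3.3) over genes kept by filterByExpr, from 0.953 to 1.09, and log2 CPM used a prior count of 2. Positions, classes and transcript lengths came from GENCODE 29 on GRCh38, which matched 58269 of 62696 identifiers without version. Trends on length and GC content were removed by lowess (span 0.3). On simulated data the 2-fold rule found 84% of 100 genes changed 4-fold, and called 3.01% of 15646 unchanged genes, among 15846 tested. The changed genes were drawn from those with a mean of at least 5 CPM, and no length or GC trend was simulated. The 84% thus does not describe genes of lower level. The genes, lists, motifs and rules were chosen with earlier results of these data known. Named genes are the 10 genes, list genes past the rule (up to 4) with up to 3 abundant others, nearest coding neighbours and neighbours past the rule, and the 5 genes most like HAPLN1; further list genes, ENSG00000272405 and HAPLN2 were named after their values were seen. Alternatives were other scalings, prior counts, expression minimums and fold rules, trend removal, thinning, leaving out each labelled library, and DESeq2 1.42.0 and voom in limma 3.58.1.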

Additional observations from a re-analysis of the deposited data

How the results depend on the processing

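No paired analysis was possible because the control is a single library that carries no replicate number. The mean log2 difference of HAPLN1, the value that chose the set, ran from 3.35 to 3.65 over the alternatives, which is no independent sign of stability. Labelled knockdown library 3 decides most counts. Leaving out 1 labelled library gave from 615 to 1542 higher and 485 to 846 lower genes in all (580 and 432 with all 3), 1 to 3 higher and 0 to 2 lower of the 10 genes, 11 to 16 higher and 1 to 4 lower of the pathway genes, and 3 to 8 higher and 3 to 6 lower of 91 tested genes around the 10 (4 and 3), the far values without library 3. With scaling refitted without library 3, chosen after seeing the data, these were 1425 and 939, 2 and 2, 14 and 5, and 8 and 6. edgeR's calls over all genes, 0 with all libraries, were 17 to 11177 when 1 labelled library was left out; the 11177 without library 3 rest on the spread of libraries 1 and 2 alone. The Wald test of DESeq2 gave 253. A mean CPM of 0.1, of 5 or no minimum changed the genes tested and gave 1605, 377 and 2526 higher and 1035, 254 and 1810 lower genes, and at 5 the pathway genes held 0 lower. A 1.5-fold rule gave 1590 higher and 1526 lower genes, 2 higher of the 10 genes and 4 lower pathway genes. Calling by the mean gave 1356 and 1074 genes, 1 lower of the 10 and 3 lower pathway genes. Removal of length and GC trends left 224 lower genes in all, 3 higher pathway genes and 0 lower genes around the 10. Thinning gave 2 lower pathway genes. Of the single genes, trend removal moved VCAN (0.05), ACAN (0.46) and HAPLN3 (-0.14) by more than their spread; where no cause is named it was not tested. At the control's depth HAPLN1, BCAN, NCAN and ACAN rest on 37, 46, 50 and 86 counts, so their ratios are known only within wide intervals, and HAPLN4 could not be tested.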

Other observations

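Around the 10 genes, 91 other genes within 500 kb were tested, of which 4 were at least 2-fold higher and 3 lower in each labelled knockdown library. Over all tested genes 3.65% were higher and 2.72% lower, so these genes are listed for their position alone. NFAT5, the transcription factor of the response to high salt, lies 446 kb from HAS3 and had 70.2 CPM in the control and 240.4, 235 and 240.2 CPM in labelled libraries 1, 2 and 3, a spread of 3.13 CPM (SD, n = 3). PAMR1, 199 kb from CD44, had 1.92 CPM against 4.58, 5.58 and 4.42 CPM. TSSK6, a testis kinase gene 250 kb from HAPLN4, had 1.67 CPM against 5.32, 4.41 and 4.48 CPM. The other higher gene was the processed pseudogene ENSG00000271369 near CD44, with 12 counts against 118, 94 and 38.

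Among the lower genes, CRABP2, which carries retinoic acid to its nuclear receptor, lies 40.1 kb from BCAN and had 379 CPM in the control and 147, 157 and 146 CPM in the labelled libraries. It was thus alike in the 3 labelled libraries, while BCAN beside it was not. NES, the progenitor intermediate filament gene next to BCAN, did not pass, at 0.80, 0.71 and 0.69 on the log2 difference scale. The noncoding gene POLG-DT, 439 kb from HAPLN3, had 2.33 CPM against 1.06, 0.972 and 1.02 CPM, and HAS2-AS1 was the other lower gene. With length and GC trends removed 3 of the 91 genes were higher and none of the 3 lower genes passed.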
